A study of Mus musculus with 2 samples.

Results

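Acute phase proteins are plasma proteins that hepatocytes make in large amounts during infection or tissue injury. The group described here holds 10 genes, namely *Saa1*, *Saa2*, *Saa3*, *Saa4*, *Orm1*, *Orm2*, *Hp*, *Hpx*, *Lcn2* and *Apcs*. They were taken by gene name from the array annotation, which gave 11 of 56605 probes and 10 of 37074 gene names. This rule used no measured value. *Lcn2* was measured by 2 probes and each other gene by 1. The question was how these genes differed between cultured hepatocytes of control mice and of mice with a liver deletion of Drp1, the GTPase that divides mitochondria.

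The data came from 2 arrays, 1 per genotype, each hybridized with RNA of untreated primary hepatocytes. The control mice carried floxed *Drp1* alleles without Cre (*Drp1* flox/flox) and are called wild type in the labels. The *Drp1*LiKO mice carried the same alleles with 1 copy of Alb-Cre, a Cre transgene under the albumin promoter, which is active in hepatocytes. The controls were sibling littermates, and the labels give C57BL/6 as the background for both arrays. The methods state age and sex for purchased mice, not for these, and the number of animals behind each array is not given in the sources used here. The cells were isolated by collagenase perfusion and plated on collagen I in high glucose DMEM with 1 µM insulin, 2 mM glutamine and 10% fetal bovine serum. The medium was changed after 4 h and RNA was taken 24 h after seeding. Neither genotype was replicated, so there was no replicate error and no test, and every difference below compares 2 arrays and not 2 genotypes.

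Log2 ratios are *Drp1*LiKO minus control after each array was set relative to its 75th percentile, which was a signal of 313 on the control array and 356 on the *Drp1*LiKO array. A Z score of 2 or more, or of -2 or less, over the 30275 probes above background was the threshold for calling a gene, and it lay at log2 ratios of 1.30 and -1.31. Of 20165 genes measured, 705 were past it in the higher direction (3.5%) and 566 in the lower direction (2.81%). The median log2 ratio of all genes was -0.05. No spot was saturated. The hepatocyte markers were all measured, 10 of 10, but 2 of them were well above background on 1 array only. Their median log2 ratio was -0.03, in a range from -1.05 to 1.28, and 0 were called. The targeted gene *Dnm1l*, which encodes Drp1, gave a control signal of 2602 and a *Drp1*LiKO signal of 1217 (log2 ratio -1.28, Z score -1.95), so its transcript was lower but still measured under the *Drp1*LiKO label. A second *Dnm1l* probe gave 22.8 and 20.9, close to background.

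In the acute phase response, macrophages and other cells release interleukin 1 and interleukin 6, and these cytokines act on receptors of the hepatocyte. Interleukin 6 signals through gp130 and STAT3, interleukin 1 through NF-kB, and both work with C/EBP factors at the promoters of acute phase genes. The products differ in task. The serum amyloid A proteins travel on high density lipoprotein, the orosomucoids bind drugs and lipids, haptoglobin and hemopexin capture free hemoglobin and heme, lipocalin 2 binds bacterial siderophores and serum amyloid P component binds amyloid and microbial surfaces.

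Promoter sequences are shown for the 3 serum amyloid A genes with the largest negative ratios and for *Lcn2*, the gene with the positive ratio. Each is the 250 bases before the transcription start in RefSeq, build GRCm38.p6, read 5′ to 3′ on the strand of the gene. They lie at chr7:46742981-46743230 on the minus strand (*Saa1*), chr7:46751583-46751832 on the plus strand (*Saa2*), chr7:46715677-46715926 on the minus strand (*Saa3*) and chr2:32387740-32387989 on the minus strand (*Lcn2*). Capitals mark the letters TTGCNNAA on either strand, a simple form of the C/EBP motif.
*Saa1*: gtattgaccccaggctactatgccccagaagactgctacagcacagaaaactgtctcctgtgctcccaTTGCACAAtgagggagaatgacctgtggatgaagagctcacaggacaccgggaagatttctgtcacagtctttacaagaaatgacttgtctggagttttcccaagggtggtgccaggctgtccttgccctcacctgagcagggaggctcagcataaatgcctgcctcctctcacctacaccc
*Saa2*: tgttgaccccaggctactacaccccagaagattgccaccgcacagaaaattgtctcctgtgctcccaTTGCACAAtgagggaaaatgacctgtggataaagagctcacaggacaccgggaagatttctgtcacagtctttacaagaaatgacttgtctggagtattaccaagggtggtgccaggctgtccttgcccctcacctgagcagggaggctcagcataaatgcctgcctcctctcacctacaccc
*Saa3*: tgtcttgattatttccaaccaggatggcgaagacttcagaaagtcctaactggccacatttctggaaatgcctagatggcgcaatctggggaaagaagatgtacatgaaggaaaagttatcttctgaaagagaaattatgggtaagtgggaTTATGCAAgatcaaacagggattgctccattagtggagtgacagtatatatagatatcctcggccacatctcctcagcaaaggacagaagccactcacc
*Lcn2*: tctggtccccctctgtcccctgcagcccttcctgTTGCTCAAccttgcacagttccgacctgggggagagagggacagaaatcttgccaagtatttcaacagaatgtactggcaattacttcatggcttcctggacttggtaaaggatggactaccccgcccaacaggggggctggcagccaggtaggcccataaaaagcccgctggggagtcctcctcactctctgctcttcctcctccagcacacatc
The match began 182 bases upstream of the start in *Saa1*, 183 in *Saa2*, 99 in *Saa3*, where it is on the opposite strand, and 216 in *Lcn2*. The *Saa1* and *Saa2* promoters were identical at 238 of 249 aligned bases (95.6%). Promoters of 8 members were in the table used, and those of *Orm1* and *Hp* were not used here. TTGCNNAA occurred in 7 of these 8, and in 9.56% of 32851 mouse promoters of the same length. A STAT motif, TTCNNNGAA, occurred in 1 of the 8 (*Apcs*) and in 7.02% of all promoters. An NF-kB motif of 10 letters, the longest of the 4 motifs, occurred in 0 of the 8 and in 1.41% of all promoters. Other forms of an NF-kB site were not looked for, so the 0 does not show that such sites were absent. TATAA on the strand of the gene, looked for as well, occurred in 2 of the 8 (*Hpx* and *Orm2*) and in 15.997% of all promoters. These matches describe letters in the windows and do not show binding. *Lcn2* and the serum amyloid A genes shared the C/EBP letters, and a link of these letters to the ratios was not tested.

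Each of the 10 genes was clearly above background on each of the arrays. *Lcn2* was higher in *Drp1*LiKO cells and past the threshold, 1 of 10 genes (10%) where 3.5% of all genes were called higher. None of the members was called lower, where 2.81% of all genes were. The other 9 genes all had negative log2 ratios, from -1.04 to -0.23, with a median of -0.33, and 44.5% of all genes had a ratio above 0. The median over all 10 genes was -0.31. In bulk RNA, fewer cells of a type and less RNA per cell cannot be told apart.

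**Figure D1:**
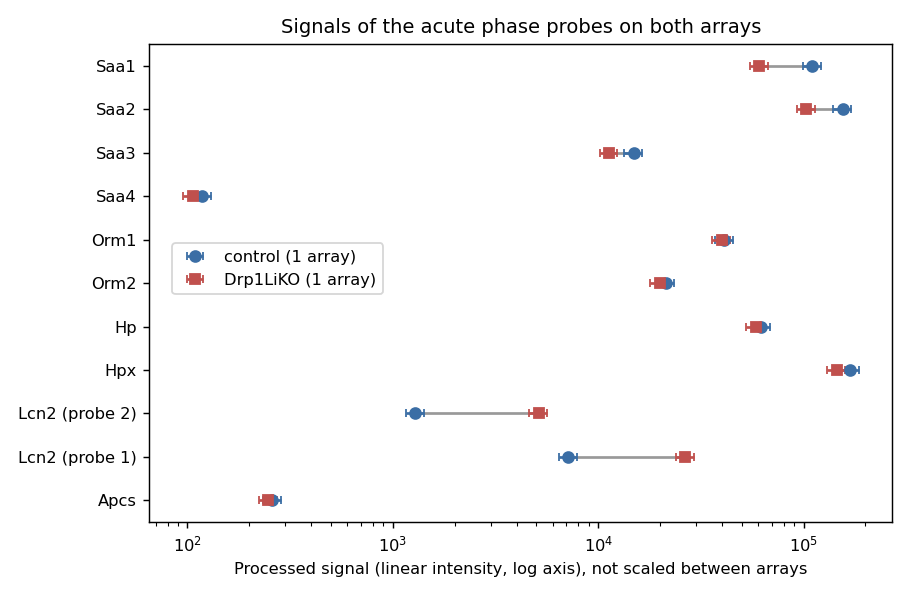
Processed signal of each acute phase probe on the control array (circles) and the *Drp1*LiKO array (squares), on a log axis and before scaling between arrays, with bars for the error given by the scanner software. The squares lie left of the circles for every probe but those of *Lcn2*, which moved from 7165 to 26508 (probe 1) and from 1283 to 5140.0 (probe 2).

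The serum amyloid A genes had the most negative ratios of the group. Their probes lie in 42.0 kb of chromosome 7 (build mm9, as are all probe positions). *Saa1* (NM_009117, chr7:53996070-53996129, minus strand), a major serum form, gave a control signal of 110232 ± 11023 and a *Drp1*LiKO signal of 60854 ± 6085, where ± is the error that the Feature Extraction software gives for a spot. That was 2.06-fold lower after scaling, a log2 ratio of -1.04 ± 0.20 and a Z score of -1.58. The intervals of the signals did not overlap. *Saa2* (NM_011314, chr7:54009535-54009594, plus strand), the other major serum form, had signals of 154969.5 ± 15497 and 103015 ± 10302. It was 1.71-fold lower, with a log2 ratio of -0.77 and a Z score of -1.17.

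*Saa3* (NM_011315, chr7:53967559-53967618, minus strand) is a form made also outside the liver, by macrophages and adipose tissue. Its control signal was 14886 and its *Drp1*LiKO signal 11279, a log2 ratio of -0.58. *Saa4* (NM_011316, chr7:53983662-53983721, minus strand) is the constitutive form, which the acute phase response hardly changes. Its signal was 118 and 106, a log2 ratio of -0.33 ± 0.21, within 2 errors of 0. Thus the 3 inducible genes had lower ratios than the constitutive one, but none of the 4 was past the threshold. Whether *Saa1* and *Saa2* passed depended on the Z score, and for *Saa1* also on the signals used. With the Z score over all probes, *Saa1* had -2.35 after normexp background correction and -2.22 in the deposited normalized values. The 1000 probes nearest to *Saa1* in mean signal had a median log2 ratio of -0.09. With the Z score taken among probes of similar signal, *Saa1* had -3.69 and *Saa2* -2.67, both past the threshold. Over 12 settings *Saa1* was past it in 4 and *Saa2* in 2.

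**Figure D2:**
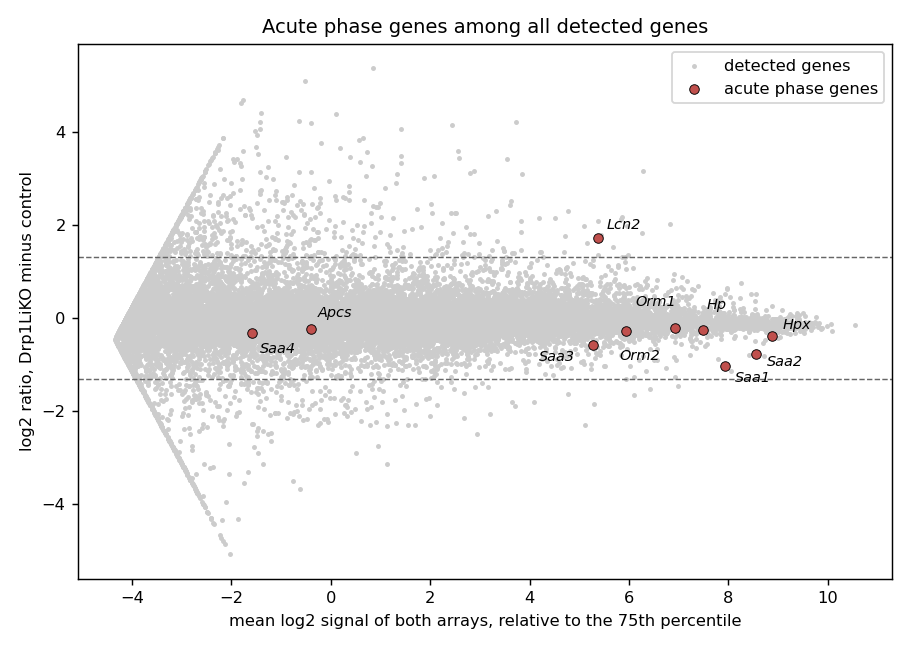
Log2 ratio of each measured gene against its mean log2 signal on both arrays, relative to the 75th percentile, with the acute phase genes named and dashed lines at Z scores of 2 and -2. *Lcn2* (1.70) lies above the upper line, and *Saa1* (-1.04) and *Saa2* (-0.77) lie inside the lines, below most genes of like signal.

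The orosomucoid genes had nearly equal signals on both arrays. *Orm1* (NM_008768, chr4:63007395-63009038, plus strand, a footprint longer than the 60-base probe) had signals of 41027 and 39834, a log2 ratio of -0.23. *Orm2* (NM_011016, chr4:63024979-63025038, plus strand) had 21334 and 19914, a log2 ratio of -0.28. Both ratios were within 2 software errors of 0. That error was near 0.20 log2 units for both genes. The SD of repeated spots of similar signal was smaller, 0.060 for both genes, and both ratios were larger than that. The neighboring gene *Orm3* had 905 and 911, a log2 ratio of -0.17. The annotation lists accessions of both *Orm1* and *Orm2* for the *Orm1* probe, so its signal cannot be assigned to 1 gene. The *Orm1* and *Orm3* probes are shown because they lie over the same stretch of these near copies, with capitals at the bases that differ.
Orm1 probe: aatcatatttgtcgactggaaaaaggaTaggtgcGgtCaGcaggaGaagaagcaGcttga
Orm3 probe: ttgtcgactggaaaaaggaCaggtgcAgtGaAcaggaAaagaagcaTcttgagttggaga
Of 52 overlapping bases 6 differed (88.5% identical), so cross-hybridization between the copies was possible and was not tested.

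The hemoglobin and heme scavengers also had ratios nearer to 0 than *Saa1*, *Saa2* and *Saa3*. *Hp* (haptoglobin, NM_017370, chr8:112099045-112099104, minus strand) had signals of 62091 and 58310, a log2 ratio of -0.27. *Hpx* (hemopexin, NM_017371, chr7:112740304-112740363, minus strand) had 168508 and 144889, a log2 ratio of -0.40 and a Z score of -0.60. Of the 1000 probes nearest in mean signal, 9.4% had a lower ratio than *Hp* and 3.6% a lower ratio than *Hpx*. For *Saa3* that share was also 3.6%. *Apcs* (serum amyloid P component, NM_011318, chr1:174824959-174825018, minus strand), the main pentraxin of the mouse acute phase, had 258 and 247, a log2 ratio of -0.25. The 5 genes outside the serum amyloid A family and *Lcn2* thus lay within 0.18 log2 units of each other, from -0.40 to -0.23.

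**Figure D3:**
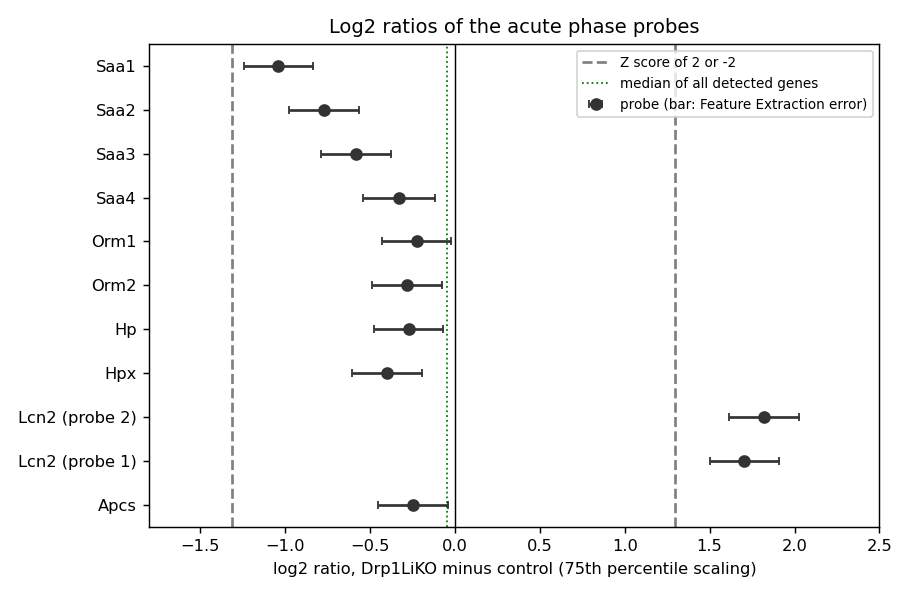
Log2 ratio of each acute phase probe (points), *Drp1*LiKO minus control, with bars for the error derived from the scanner software. Both *Lcn2* probes lie at 1.70 and 1.82, *Saa1*, *Saa2* and *Saa3* lie more than 2 errors below 0, and the other 6 probes lie within 2 errors of 0. These errors were 0.20 to 0.21 for every probe, and the SD of repeated spots of similar signal was smaller.

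*Lcn2*, which encodes lipocalin 2, differed in the opposite direction from the other members. Probe 1 (chr2:32240199-32240258, minus strand) gave a control signal of 7165 and a *Drp1*LiKO signal of 26508, 3.26-fold higher with a log2 ratio of 1.70 ± 0.20 and a Z score of 2.63. Probe 2 (chr2:32241037-32241281, minus strand) had 1283 and 5140.0, 3.53-fold higher with a log2 ratio of 1.82 and a Z score of 2.80. The probes lie 779 bases apart in the gene and their ratios differed by 0.11, so both gave the same direction and nearly the same size. Probe 2 is shown because its 60 bases cover 245 bases of the genome and therefore cross a splice junction.
Lcn2 probe 2: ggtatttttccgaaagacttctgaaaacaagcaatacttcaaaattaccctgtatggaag
The next gene of the group, *Orm1*, lay 1.93 log2 units lower. *Lcn2* was past the threshold in 11 of 12 settings. Without the floor on dim signals its Z score was 1.85. *Lcn2* also stands in the study's own list of immune genes, which was chosen on these arrays, so that list is not independent evidence of its direction.

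Markers of several other liver cell types were also higher on the *Drp1*LiKO array. Of 12 Kupffer cell and macrophage markers 11 were measured and 10 were past the threshold in the higher direction. Their summed signal was 4705.5 on the control array and 20482.5 on the *Drp1*LiKO array. Log2 ratios of the brightest probes ran from 0.73 to 3.45, and a second *Csf1r* probe had -0.02. *Adgre1*, *Cd5l*, *Marco*, *C1qa*, *C1qb* and *C1qc* also stand in the study's own list of immune genes, which is not independent evidence of their direction. Of the endothelial markers 4 of 8 were called higher, with a summed signal of 4123 and 8460. *Egfl7* (3773 and 6941, log2 ratio 0.70), which was not called, made up most of that sum. Of the stellate cell and fibroblast markers 3 of 8 were called higher, with a summed signal of 21847 and 29182 and log2 ratios from -0.16 to 4.06. Most of this sum was the brightest *Acta2* probe (21437 and 24640, log2 ratio 0.02), while another *Acta2* probe had a log2 ratio of 2.20. The cholangiocyte markers did not share this direction. Of 6 such genes 4 were measured and 0 called, with a median log2 ratio of 0.09 and a summed signal of 29379 and 24885. Of the 4, 2 had ratios above 0, and *Spp1* (24719 and 20346, log2 ratio -0.46) made up most of the sum. Of the neutrophil markers, 7 of 10, including *S100a8*, *S100a9* and *Mpo*, were not well above background on either array. Of the other 3, *Ly6g* was called higher, from a signal not well above background in control to 76.9, at least 3.72-fold higher. *Elane* had 635 and 623 and made up most of the summed neutrophil signal of 672 and 729. The part of these cells in the *Lcn2* ratio was not tested.

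Other acute phase genes did not share 1 direction. Of 25 such genes, 23 were measured, and 3 were called lower and 0 higher, with a median log2 ratio of -0.06. *Hamp*, which encodes the iron hormone hepcidin, gave a control signal of 24274 and a *Drp1*LiKO signal of 5534 (log2 ratio -2.32). *Crp*, a pentraxin, had 92.6 in control and was not well above background in *Drp1*LiKO cells, so it was at least 7.02-fold lower. A second *Crp* probe was not well above background on either array (7.85 and 7.81). *Steap4*, a metalloreductase, was at least 4.48-fold lower in the same way. With normexp background correction the log2 ratios were smaller, -1.18 for *Crp* and -0.88 for *Steap4*, though both genes were still past the threshold. The highest ratio not past the threshold was that of *Il1rn*, the interleukin 1 receptor antagonist (0.84), and the lowest that of *Cp*, ceruloplasmin (-0.64). The metallothioneins *Mt1* and *Mt2* had log2 ratios of 0.74 and 0.61.

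Of the 9 negative acute phase genes, whose products decrease in plasma during inflammation, all were measured and 1 was called. *Ahsg*, which encodes fetuin A, was called higher, with signals of 12810 and 51568 and a log2 ratio of 1.83, and was past the threshold in 11 of 12 settings. The lowest ratio was that of *Igf1* (-0.91, past the threshold in 3 of 12 settings), and the median was 0.06. The highest ratio not past the threshold was 0.54.

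Of 10 cytokines that induce the response, 7 were measured and 2 were called higher. *Il11* had signals of 31.8 and 164, a log2 ratio of 2.19. *Il6* was not well above background in control and had 69.7 in *Drp1*LiKO cells, at least 3.37-fold higher. A second *Il6* probe had 39.1 in *Drp1*LiKO cells, at least 1.89-fold higher and not past the threshold. *Il6* was past the threshold in 8 of 11 settings. It was short of it with normexp background correction (log2 ratio 0.63) and in the deposited normalized values (0.83). *Il1b* was likewise measured only in *Drp1*LiKO cells, at least 1.78-fold higher and not past the threshold. The brightest *Tnf* probe had a log2 ratio of -0.17, while another *Tnf* probe was at least 4.65-fold lower, so the probes disagreed. *Ctf1*, cardiotrophin 1, had the lowest ratio of the measured cytokines (-0.49).

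None of the 13 receptors and signal transducers, 12 transcription factors and 6 feedback inhibitors was past the threshold, with medians of -0.21, 0.03 and 0.01. Under other settings *Creb3l3* was past it in 4 of 12 and *Il1r1* in 3 of 12, and 2 of the inhibitors were called lower with the Z score among probes of similar signal and with that from the median and MAD. Among the receptors, the lowest was *Il1r1*, the interleukin 1 receptor (331 and 160, log2 ratio -1.23, Z score -1.87), and the highest was the kinase *Tyk2* (0.43). Among the transcription factors, *Creb3l3*, a membrane-bound factor of the liver that activates *Hamp*, *Crp* and *Apcs*, was highest (2333 and 5559, log2 ratio 1.07), and *Nfkb1* lowest (-0.41). *Stat3* had 0.36, *Cebpb* 0.16 and *Cebpd* -0.23. Of the inhibitors, *Nfkbia*, the NF-kB inhibitor alpha, had -0.97 and *Socs3*, an inhibitor of interleukin 6 signaling, 0.38.

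**Figure D4:**
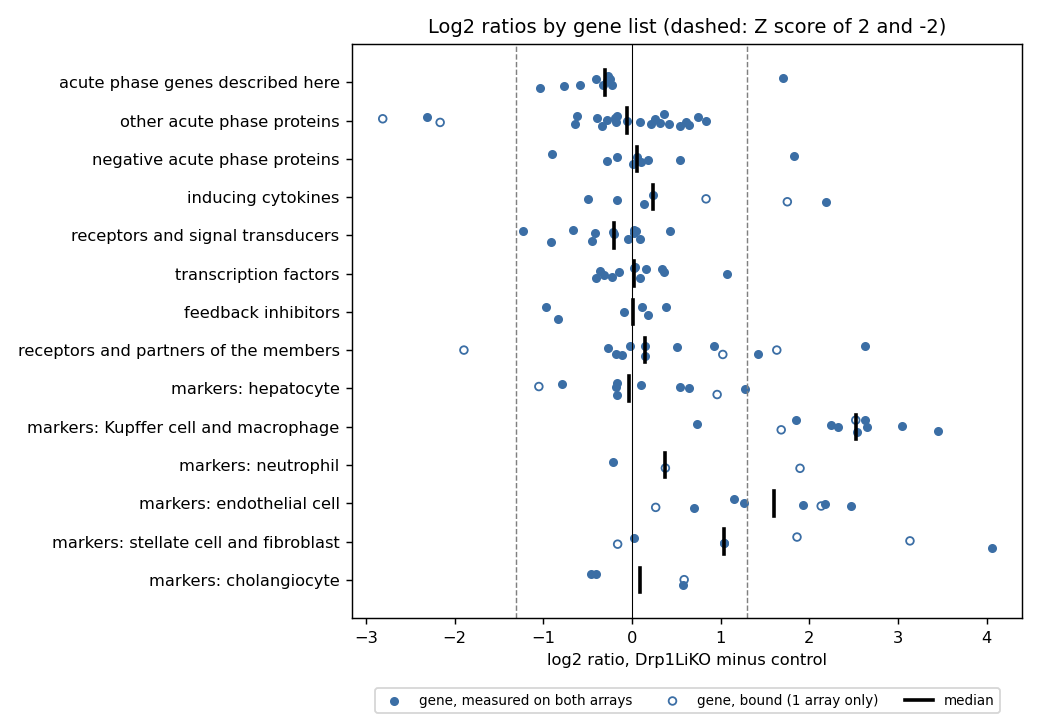
Log2 ratio of each measured gene by list, with filled circles for genes measured on both arrays, open circles for bounds where only 1 array measured the gene, black bars for the list medians and dashed lines at Z scores of 2 and -2. The acute phase genes described here center at -0.31 with *Lcn2* alone at 1.70, and the Kupffer cell and macrophage markers center at 2.52.

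Receptors and binding partners of the members were mixed. Of 14 genes 13 were measured, with 3 called higher and 1 lower and a median of 0.15. The Fc receptors *Fcgr2b* and *Fcgr3*, which bind serum amyloid P component, had log2 ratios of 2.63 and 1.42, and *Fpr1*, a formyl peptide receptor, was at least 3.10-fold higher. *Fcgr3* was past the threshold in 9 of 12 settings and *Fpr1* in 9 of 11, and with normexp background correction neither was, at log2 ratios of 0.45 and 0.47. *Lrp2*, megalin, an uptake receptor for lipocalin 2, was at least 3.72-fold lower and past the threshold in 9 of 11 settings. It was short of it with normexp (-0.80) and in the deposited normalized values (-1.22). Of the genes not past the threshold, *Fcgr1*, another Fc receptor, was highest (at least 2.03-fold higher) and *Scarb1*, a receptor for high density lipoprotein, lowest (log2 ratio -0.27). *Slc22a17*, another lipocalin 2 receptor, had 23.6 and 29.8, a log2 ratio of 0.15. *Hmox1*, which degrades heme, had 0.93, but -2.81 in the deposited normalized values. *Cd163*, the haptoglobin-hemoglobin receptor of macrophages, was not well above background on either array.

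**Figure D5:**
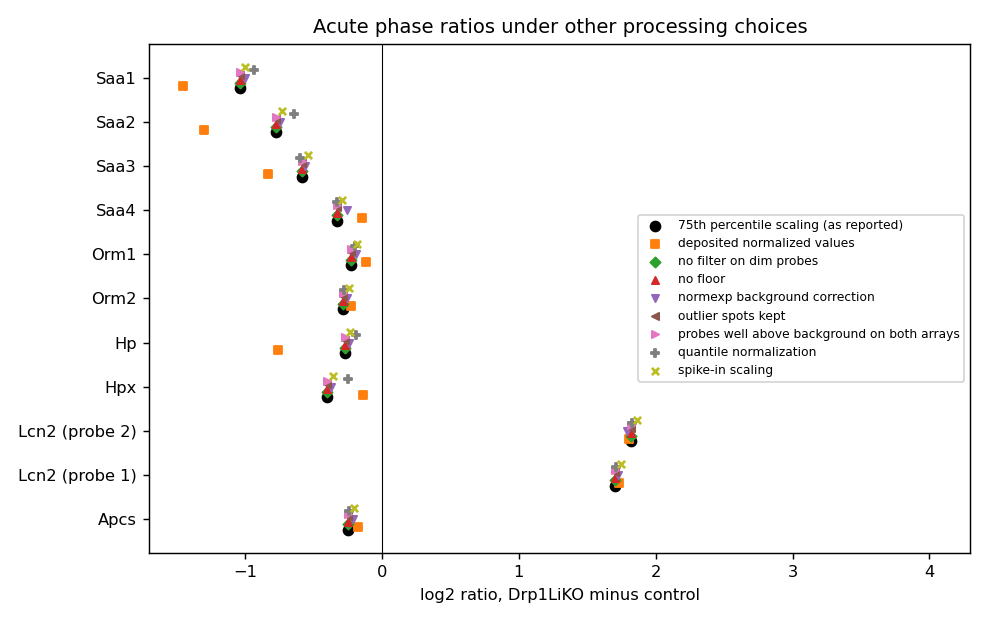
Log2 ratio of each acute phase probe under each processing setting, without the 2 other Z scores and the median of the probes. The 9 genes other than *Lcn2* lie below 0 in every setting, and the *Lcn2* probes lie between 1.70 and 1.86.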

How the data were processed

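RNA of control and *Drp1*LiKO primary hepatocytes was labeled with Cy3 and hybridized in 1 color to Agilent mouse arrays of 60-mer probes, 1 array per genotype. For each array the authors deposited the scanner output of Feature Extraction. It holds the raw mean intensity of every spot and an intensity from which background had been removed, called the processed signal. A further deposited table holds normalized intensities, and its method is not given in the sources used here. The submitters' processing notes name Feature Extraction 9.5.1.1 and the file headers 10.7.1.1. In the normalized table the rank correlation with the array was 1.000 for control and 0.958 for *Drp1*LiKO, so it was kept as an alternative alone.

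From the processed signals, after removal of control and outlier spots, the mean log2 value of each probe was taken relative to the 75th percentile of its array. A probe was kept where either array had it well above background (30275 of 56605). Dimmer signals were raised to the lowest signal well above background (18.2 on the control array and 15.0 on the *Drp1*LiKO array). Such ratios are therefore bounds, but only under this processing, and some were smaller with normexp background correction. The Z score was taken over all kept probes, with a threshold of 2, as in the study, and a gene was its brightest probe. Errors were those of Feature Extraction, and spots of 300 repeated probes had a median SD of 0.0377 (control) and 0.0420 (*Drp1*LiKO) on the log2 scale. Both are technical errors, and the number of arrays limits the precision. The calculation was also run on simulated data, with planted changes larger than any member ratio and in bright genes only. That run therefore does not bear on ratios of the size seen here.

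By rule the text names all members, *Dnm1l*, and from each list other than the cell markers the genes past the threshold and the highest and lowest of the rest, except that 1 negative acute phase gene is given by its value alone. Some further list genes and markers were named after their values were seen. Members and lists were chosen with earlier results of these data known. The 11 alternatives were quantile normalization, normexp (offset 50, limma 3.58.1, R 4.3.3), spike-in scaling, the deposited normalized values, no floor, 2 other filters for dim probes, inclusion of outlier spots, 2 other Z scores and the median of the probes of a gene. Python 3.11.15, numpy 2.4.6 and pandas 2.3.3 were used.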

Additional observations from a re-analysis of the deposited data

How the results depend on the processing

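All 9 genes other than *Lcn2* had log2 ratios below 0 in all 12 settings. The 2 other Z scores do not change a ratio, and the median of the probes cannot change that of a gene with 1 probe. Outside these settings, of 88 alternative values of the member probes 83 moved by less than the error of the probe. The other 5 came from the deposited normalized values, with -1.46 for *Saa1*, -1.30 for *Saa2*, -0.83 for *Saa3*, -0.76 for *Hp* and -0.14 for *Hpx*. Many of the 83 could hardly move. The 2 other filters and the removal of the floor left the member ratios unchanged, since all members were well above background on both arrays. Spike-in scaling shifted every ratio by the same amount, and keeping outlier spots changed them by almost nothing. The number of members called higher was 1 and became 0 without the floor. The number called lower was 0 and became 2 (*Saa1* and *Saa2*) with the Z score among probes of similar signal and with that from the median and MAD, and 1 (*Saa1*) with normexp and with the deposited normalized values. Over all genes, 705 were called higher, against 1722 with the median and MAD and 1355 without a filter, and 566 lower, against 1443 with the median and MAD. The higher share of called genes was 55.5%, 46.7% with the Z score among probes of similar signal, which turned the balance to lower, and 69.4% without a filter, which also moved the median of all genes to -0.47. The causes were not tested. No paired analysis was possible because the labels give no replicate numbers and each genotype has 1 array, which also leaves no replicate to omit.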
